A study of Mus musculus with 20 samples.

Results

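Tumours of the organoid line MTO54, of genotype LAKP, were compared with tumours of the organoid line MTO207, of genotype LAKT. The comparison takes all 4 tumours of each line, 8 of the 20 tumours in the series, with treatment as a covariate. Each line gave 2 tumours from control mice (Con) and 2 from mice given LY, which is galunisertib, a drug that blocks the kinase of the type I TGF-beta receptor. The LY mice received 10 mg by gavage 2 times per day from day 11 until sacrifice in week 5. Both lines are parental mouse tumour organoid lines that were first grown under the skin, and pieces of those tumours were then transplanted to the tip of the caecum of syngeneic C57BL/6J mice. The age of the animals is not given in the sources used here. The other 12 tumours come from the LAKTP lines MTO68, MTO93 and MTO140 and enter only as reference values.

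The labels do not spell out the genotype letters. In this mouse model L stands for an Lgr5-EGFP-creERT2 allele, A for Apc, T for the TGF-beta receptor gene Tgfbr2 and P for the p53 gene. LAKP tumour cells thus lack functional p53 and keep the receptor, and LAKT tumour cells lack the receptor and keep p53. The Cre allele acts in Lgr5-positive intestinal stem cells and their progeny. Host fibroblasts, vessels and immune cells of the grafted tumours come from the recipient mice and carry intact copies of both genes. Each genotype is represented by 1 organoid line, and a difference between the lines need not follow from the T or P allele. All 4 tumours of a line shared an array strip, so line, genotype and strip cannot be told apart. Whole tumour fragments were used, in which fewer cells of a type and less RNA per cell cannot be told apart. The p-values measure the spread among these tumours only.

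TGF-beta ligands bind a type II receptor, which recruits and activates the type I receptor, and SMAD proteins then carry the signal to the nucleus. In intestinal epithelium this pathway restrains growth, and in fibroblasts it drives the production of matrix. The p53 protein is a transcription factor that switches on inhibitors of the cell cycle, death genes and its own negative regulator Mdm2 after DNA damage or oncogenic stress. The Cdkn2a and Cdkn2b genes lie side by side and encode inhibitors of cyclin-dependent kinases, and 1 product of Cdkn2a also protects p53 from Mdm2.

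Of 15556 genes tested with limma, 177 (1.14%) differed between the lines at an adjusted p under 0.05. In MTO54 150 of them (0.964% of all genes) were higher and 27 (0.174%) were lower. All 177 differed in the same direction in both treatment arms, with both MTO54 tumours of an arm on the same side of both MTO207 tumours. That separation alone was common, since 15.3% of all genes tested lay higher in MTO54 in both arms without overlap and 11.4% lay lower. The differences of the 177 genes had a median size of 1.07 on the log2 scale, 106 were larger than 1 and 14 were larger than 2. The number of calls depended on single tumours. Leaving out any MTO207 tumour left 13 to 16 calls, leaving out LY replicate 2 of MTO54 left 18, leaving out control replicate 2 of MTO54 left 113 and leaving out LY replicate 1 of MTO54 gave 272.

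Properties of the arrays also differed between the lines. The SD of the values on an array was 1.60 to 1.72 in MTO54 and 1.46 to 1.57 in MTO207, with no overlap. The median value was 4.93 to 5.03 in MTO54 against 5.03 to 5.12 in MTO207. The 7 hybridization control probe sets had a mean of 9.64 to 10.05 in MTO54 and 10.22 to 10.38 in MTO207, again without overlap. From the dimmest to the brightest of 5 equal classes of genes by mean level, the median difference between the lines went from -0.13 to 0.34, and 96 of the 150 higher calls were in the brightest class. After a cyclic loess normalization, chosen after seeing the data, 57 genes were called, 37 higher and 20 lower, so that 64.9% of the calls were higher in place of 84.7%. Quantile normalization gave 62 calls, 71% of them higher. With the spread of the arrays as a covariate 1 gene was called. Since the spread did not overlap between the lines, that fit can hardly tell line from spread. The part of the hybridization controls in the differences was not tested. An adjusted p after loess stands beside each named call that loess ended.

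**Figure D1:**
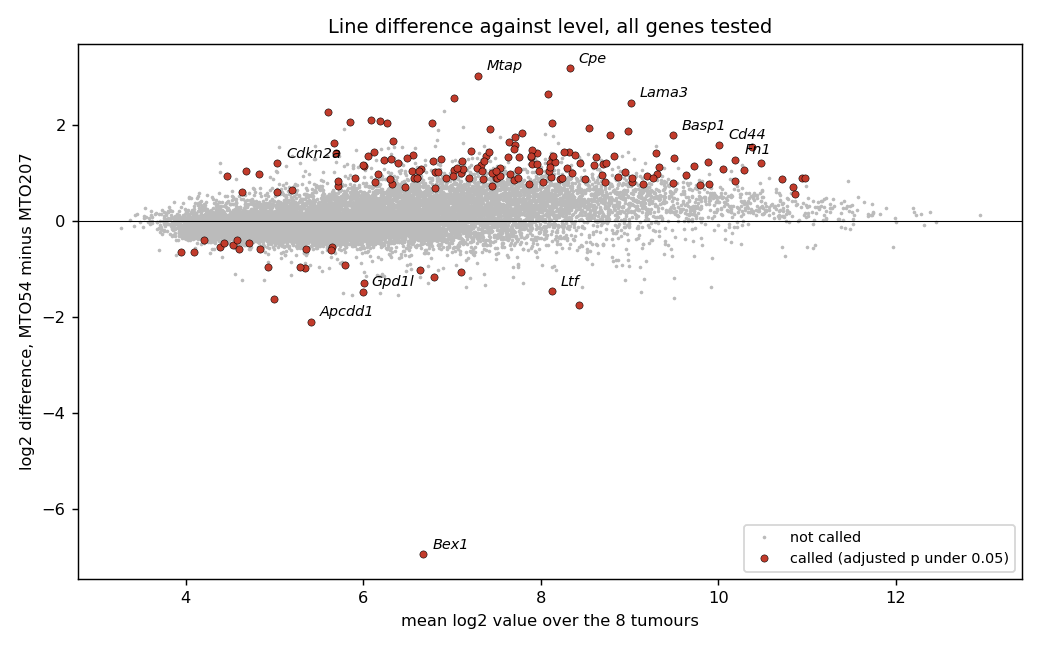
The log2 difference MTO54 minus MTO207 (vertical axis) of each gene tested is plotted against its mean log2 value over the 8 tumours (horizontal axis), with the 177 called genes in red, the others in grey and a line at no difference. The median was 0.34 over the brightest of 5 equal classes of genes and -0.13 over the dimmest, and most calls among bright genes lay above the line of no difference.

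The leading difference was Bex1, an X-linked gene for a small signalling adaptor of the brain-expressed X-linked family that tumour cells can silence. Its log2 values were 3.14 and 3.22 in the MTO54 control tumours and 3.30 and 3.14 under LY. In MTO207 they were 10.09 and 9.67 in the control tumours and 10.36 and 10.51 under LY. All 4 MTO54 values thus lay at the bottom of the scale, and all 4 MTO207 values were among the high values of the arrays. The log2 difference was -6.96 (SE 0.16, adjusted p = 5.76e-08), with -6.70 in control and -7.22 in LY tumours. Bex1 was called in each of the 8 omissions of a tumour and under both other normalizations, and it was the only gene called with array spread as a covariate. The LAKTP lines were spread over the same range, with means of 10.41 ± 0.22 (SD, n = 4) in MTO68, 8.17 ± 1.51 (n = 4) in MTO93 and 3.57 ± 0.33 (n = 4) in MTO140.

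No neighbour of Bex1 passed the test. Among the 13 measured genes from 6 before to 6 after it on the X chromosome in RefSeq order, the differences of the other 12 ran from -0.62 for Bex3 (adjusted p = 0.0573) to 0.19. Bex4 is another member of the family, and its values were 3.75, 4.01, 3.90 and 4.14 in MTO54 and 4.47, 4.23, 4.05 and 3.98 in MTO207. These values overlapped, and the difference was -0.23 (adjusted p = 0.216). Bex3 and Bex4 were named after their values were seen. Bex4 lay near the bottom of the scale in both lines (means 3.95 in MTO54 and 4.18 in MTO207), where a difference can hardly show. The starts of Bex1 and Bex4 are shown because their sequences are nearly the same. The Mtap sequence is shown beside them as the start of the leading gene of the chromosome 4 block described next. Each runs 5′ to 3′ on the gene's strand from 250 bases before to 50 bases after the start, from RefSeq on GRCm38.p6, with every CG in capitals. They lie at chrX:136215464-136215763 on the minus strand, chrX:136138746-136139045 on the plus strand and chr4:89137120-89137419 on the plus strand.
Bex1: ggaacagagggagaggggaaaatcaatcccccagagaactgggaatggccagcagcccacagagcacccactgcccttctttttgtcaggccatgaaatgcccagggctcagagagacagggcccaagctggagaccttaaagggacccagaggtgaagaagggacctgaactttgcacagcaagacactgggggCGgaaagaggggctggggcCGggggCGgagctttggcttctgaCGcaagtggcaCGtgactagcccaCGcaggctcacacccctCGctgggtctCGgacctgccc
Bex4: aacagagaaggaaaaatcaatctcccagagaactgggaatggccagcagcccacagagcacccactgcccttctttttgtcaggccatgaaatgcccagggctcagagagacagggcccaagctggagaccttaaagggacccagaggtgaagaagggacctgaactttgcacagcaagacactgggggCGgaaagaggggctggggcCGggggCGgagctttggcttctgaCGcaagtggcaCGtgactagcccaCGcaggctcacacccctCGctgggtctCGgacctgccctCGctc
Mtap: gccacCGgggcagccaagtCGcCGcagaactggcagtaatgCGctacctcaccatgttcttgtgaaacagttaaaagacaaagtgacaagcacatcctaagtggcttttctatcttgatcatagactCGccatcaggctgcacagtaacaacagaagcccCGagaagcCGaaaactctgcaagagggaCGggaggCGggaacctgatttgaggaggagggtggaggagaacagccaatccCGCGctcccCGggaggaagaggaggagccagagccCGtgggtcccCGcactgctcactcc
Bex1 and Bex4 share an identical run of 271 bases, which starts at base 30 of the Bex1 window and at base 24 of the Bex4 window. For Bex1 and Mtap the longest shared run is 8 bases. The windows hold 8, 9 and 14 CG, and 48.6%, 45.8% and 36.3% of 32851 mouse promoter windows hold at least as many. CG is the site of DNA methylation in mammals, and methylation was not measured here.

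Among the genes higher in MTO54, 4 lie close together on chromosome 4, namely Klhl9, Mtap, Cdkn2a and Cdkn2b. Mtap encodes the enzyme that salvages methylthioadenosine, and in human tumours it is often deleted together with its neighbour CDKN2A. Its values were 8.94, 8.84, 8.41 and 9.04 in MTO54 and 5.79, 5.85, 5.96 and 5.52 in MTO207. The lines were far apart and the tumours of each line close together, with a difference of 3.03 (SE 0.18, adjusted p = 0.000152). All 4 probe sets of Mtap were higher in MTO54, by 1.78 to 3.03. Klhl9, a substrate adaptor of a CUL3 ubiquitin ligase, had values of 7.97, 6.79, 7.02 and 7.18 in MTO54 against 5.06, 5.15, 5.23 and 5.15 in MTO207 (difference 2.09, SE 0.23, adjusted p = 0.00996). Again the 4 MTO207 tumours lay within a narrow low range.

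Cdkn2b, which encodes the kinase inhibitor p15 and is a known TGF-beta target, had values of 7.78, 6.74, 6.71 and 7.44 in MTO54 against 5.51, 5.73, 5.40 and 5.35 in MTO207. The difference was 1.67 (SE 0.24, adjusted p = 0.0228). Cdkn2a had values of 5.75, 5.55, 5.64 and 5.60 in MTO54 against 4.37, 4.51, 4.42 and 4.40 in MTO207 (difference 1.21, SE 0.09, adjusted p = 0.000696), and was named after its values were seen. Mtap and Cdkn2a were also called in each omission, under both other normalizations and within the LY arm alone. None of the 3 LAKTP lines had a mean as low as MTO207 for these genes. For Mtap the LAKTP means were 9.18 in MTO68, 8.58 in MTO93 and 8.66 in MTO140, all at the level of MTO54. The LAKTP means of Klhl9 were 7.11, 6.47 and 7.15, and those of Cdkn2a 5.84, 5.33 and 5.26.

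No other gene around Mtap passed. In the 25 measured genes from 12 before to 12 after it, the 21 that were not called differed by -0.66 (Tusc1) to 0.36 (Elavl2). Several of the genes between Klhl9 and Mtap are type I interferon genes, and the 9 interferon genes in the window had line means of 3.91 to 6.58 and differences of -0.47 to 0.00. Dmrta1, the next gene after Cdkn2b, differed by 0.12. The genes measured between Klhl9 and Mtap were not called. Means in MTO54 and MTO207 were 4.01 and 4.23 for Ifna6 and 4.38 and 4.45 for Ifna4, against array medians of 4.93 to 5.12. Ifna5 had higher means of 6.32 and 6.55. A gene with little transcript in both lines cannot show a difference, so such genes cannot tell whether Klhl9 stands apart from the other 3 called genes. DNA copy number was not measured.

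**Figure D2:**
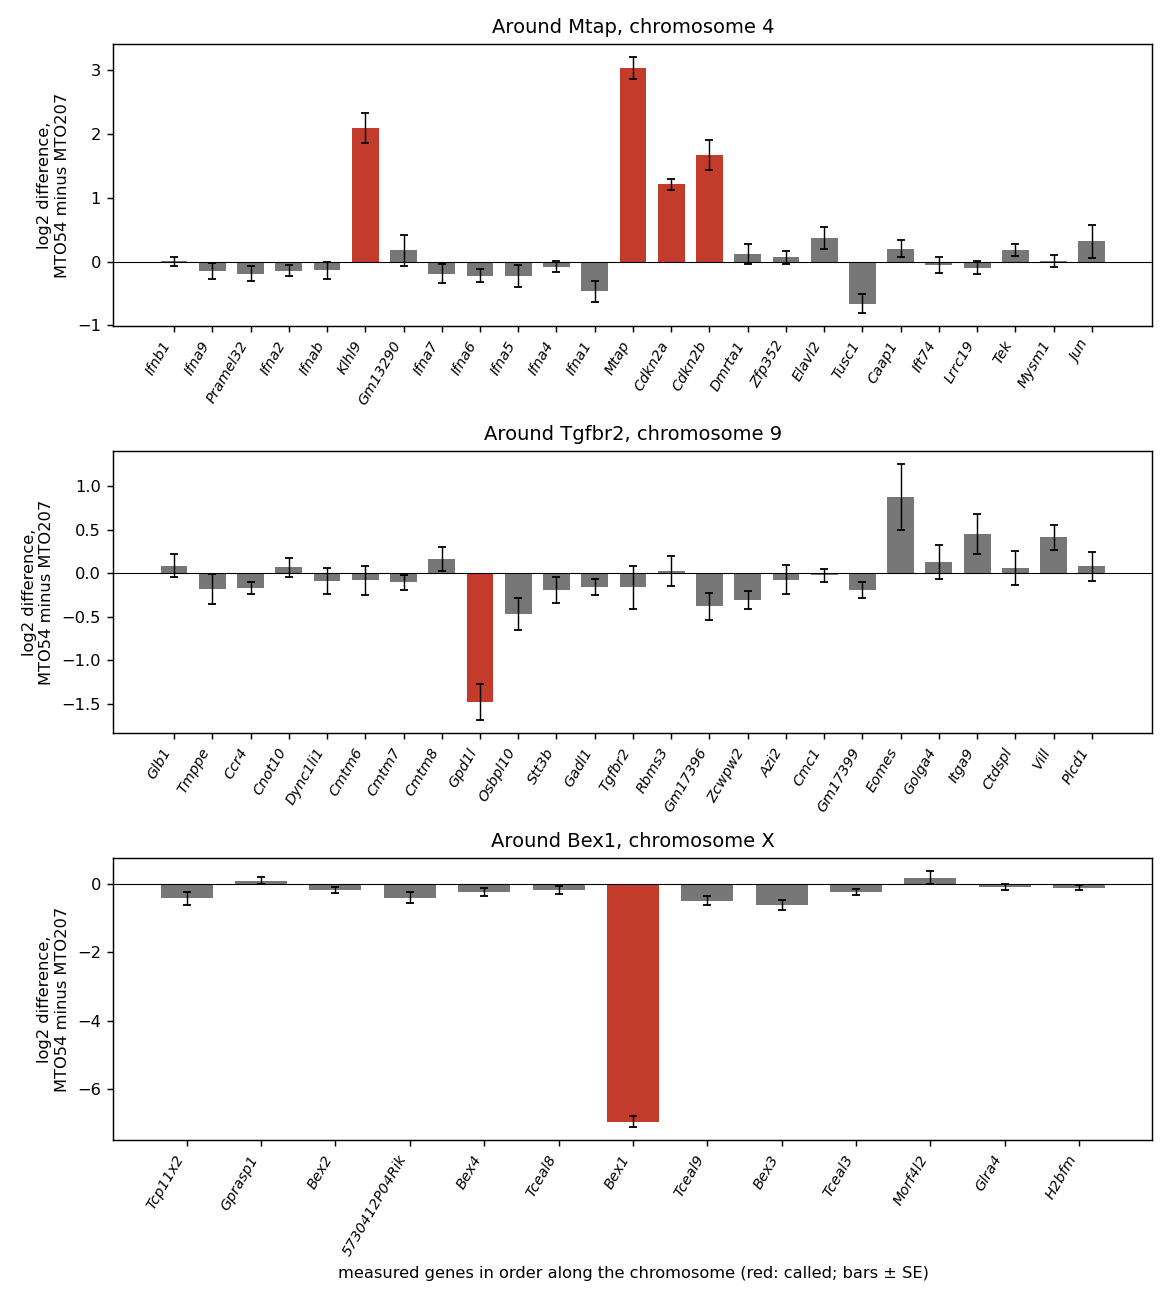
The log2 difference MTO54 minus MTO207 (vertical axis, with standard errors) is drawn as a bar for each measured gene in RefSeq order around Mtap, Tgfbr2 and Bex1 (horizontal axis), with called genes in red and the others in grey. Klhl9, Mtap, Cdkn2a and Cdkn2b are the 4 called genes around Mtap, Gpd1l is the 1 around Tgfbr2 and Bex1 stands alone at -6.96.

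The largest positive difference of all was that of Cpe. Cpe, a carboxypeptidase that processes peptide hormones, had values of 10.74, 8.88, 9.49 and 10.56 in MTO54 against 5.61, 6.82, 7.46 and 7.06 in MTO207 (difference 3.18, SE 0.45, adjusted p = 0.0228). Cdh13, an atypical cadherin anchored to the membrane, had values of 9.97, 9.12, 8.74 and 9.81 against 5.98, 6.63, 6.90 and 7.51 (difference 2.65, SE 0.35, adjusted p = 0.0218). For Cpe and Cdh13 the lowest MTO54 tumour lay above the highest MTO207 tumour by more than 1 log2 unit. Of the 4 Cdh13 probe sets 1 differed by -0.03. Ppbp, a platelet and neutrophil-attracting chemokine, had values of 9.50, 8.13, 8.35 and 7.23 against 5.77, 5.81, 5.33 and 6.02 (difference 2.57, SE 0.36, adjusted p = 0.0228).

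Lama3, the alpha chain of the epithelial laminin that anchors cells to the basement membrane, had values of 11.07, 10.05, 9.95 and 9.93 in MTO54. In MTO207 they were 7.51, 7.81, 7.80 and 8.01, and the difference was 2.46 (SE 0.26, adjusted p = 0.00772). A second probe set of the gene differed by -0.08. Rhob, a small GTPase of membrane traffic and cell shape, differed by 2.04 (SE 0.21, adjusted p = 0.00724), with 9.42, 8.97, 9.36 and 8.84 against 6.67, 7.34, 7.25 and 7.16. Basp1, a membrane-bound cytoskeletal regulator, was named after its values were seen and had values of 10.82, 10.23, 10.12 and 10.35 against 8.59, 8.63, 8.48 and 8.67 (difference 1.79, SE 0.16, adjusted p = 0.00435). Lama3, Rhob and Basp1 were called in all 8 omissions and under both other normalizations. That set held 10 genes, and the other 7 were Bex1, Mtap, Cdkn2a, Klhl9, Cd44, Lrig3 and Ltf.

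Transcription factors were also among the leading genes. Hoxa10, a homeobox gene of posterior body identity, had values of 7.78, 7.54, 7.13 and 6.75 in MTO54 against 4.53, 5.31, 5.53 and 5.63 in MTO207 (difference 2.05, SE 0.29, adjusted p = 0.0228). In MTO68 its mean was 8.25, and in MTO93 and MTO140 it was 4.75 and 4.86, so LAKTP lines of 1 genotype lay on both sides. Onecut2, a cut-homeobox factor of liver and foregut development, was 7.31, 7.19 and 7.36 in 3 MTO54 tumours and 5.09 in control replicate 2, against 4.62, 4.32, 4.52 and 4.43 in MTO207. The difference was 2.27 (SE 0.41, adjusted p = 0.0453, and 0.0683 after loess). Hmga2, an architectural chromatin protein of embryonic and tumour cells, was 9.38, 7.83, 8.35 and 8.77 against 6.78, 6.52, 7.05 and 7.001 (difference 1.74, SE 0.30, adjusted p = 0.0442, and 0.0667 after loess). Its LAKTP means were 6.22, 6.29 and 4.83, all below every MTO54 tumour. Tnnt2, a troponin of cardiac muscle, differed by 2.10 (adjusted p = 0.0442, and 0.0669 after loess), Sorcs2, a sorting receptor, by 2.05 (adjusted p = 0.0442, and 0.0661 after loess) and Prss23, a serine protease, by 2.07 (adjusted p = 0.0228). Of the 3 Prss23 probe sets 1 differed by -0.11.

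Fewer genes were lower in MTO54, and their differences were smaller apart from Bex1. Apcdd1, a membrane inhibitor of Wnt signalling that is itself a Wnt target, had values of 3.996, 4.59, 4.59 and 4.27 in MTO54 against 5.24, 6.48, 6.37 and 7.76 in MTO207 (difference -2.11, SE 0.38, adjusted p = 0.0442, and 0.0726 after loess). Ltf, the iron-binding lactoferrin of neutrophil granules and of secretory epithelium, had values of 7.42, 7.58, 7.24 and 7.33 against 9.12, 8.72, 8.88 and 8.72 (difference -1.47, SE 0.15, adjusted p = 0.00724). Ltf was the only called gene among 17 tested markers of neutrophils and acute inflammation, and S100a8, an abundant neutrophil calcium-binding protein, differed by 0.10 (adjusted p = 0.738). Lrig3, a membrane protein that modulates growth factor receptors, had values of 4.80, 4.79, 4.94 and 4.86 against 5.96, 5.97, 5.84 and 5.59 (difference -0.99, SE 0.11, adjusted p = 0.00996).

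Calcb, a calcitonin gene-related peptide, differed by -1.62 (adjusted p = 0.0442, and 0.0716 after loess). Slc28a3, a nucleoside transporter, differed by -1.29 (adjusted p = 0.0228), and Cd55, a membrane inhibitor of complement, by -1.16 (adjusted p = 0.0404). All 3 probe sets of Cd55 were lower in MTO54, by -0.67 to -2.70. Kif5a, a neuronal kinesin, differed by -1.07 (adjusted p = 0.0442). Cited1, a transcriptional co-regulator, differed by -0.96 (adjusted p = 0.0453) and the kinase gene Cdkl4 by -0.96 (adjusted p = 0.0456), and the adjusted p of both was 0.0847 after loess. Ssty1 belongs to a multicopy family on the Y chromosome, whose near-identical copies a probe set may not separate, and it differed by -1.74 (adjusted p = 0.0403, and 0.0661 after loess).

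**Figure D3:**
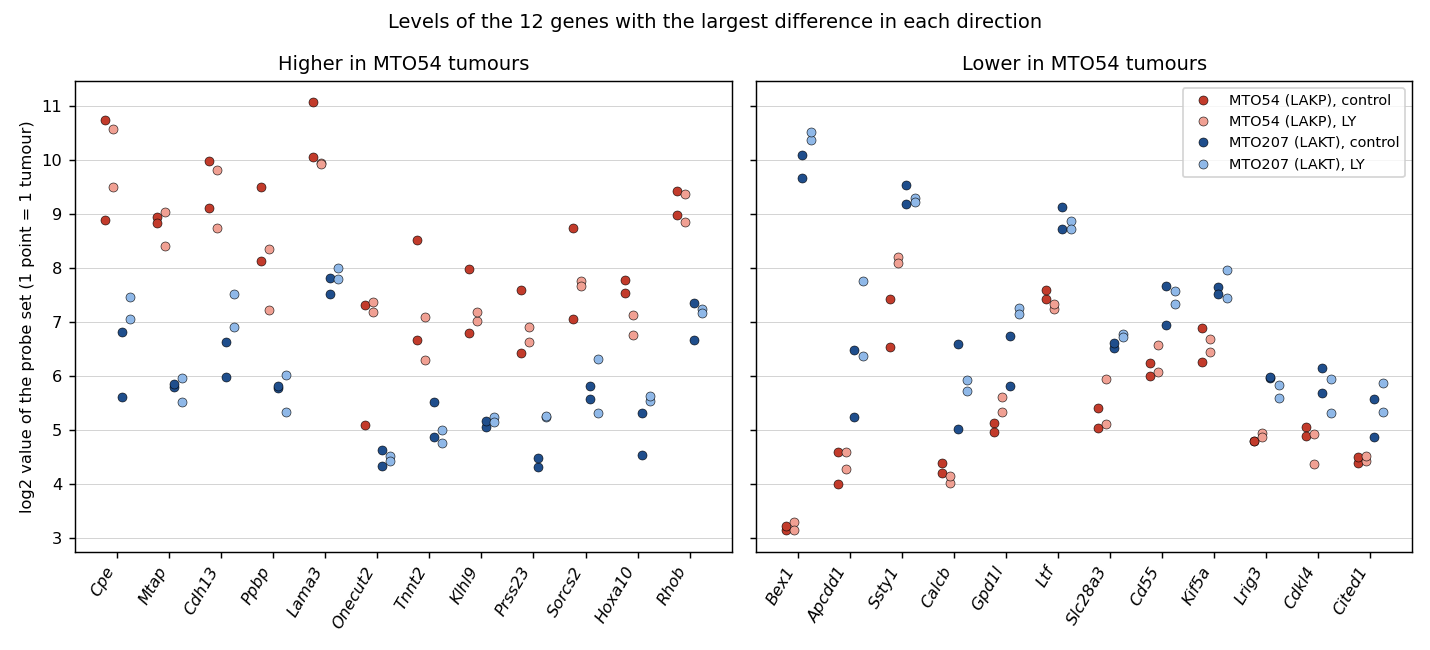
Log2 values of the leading genes (vertical axis) are plotted for the 12 highest and the 12 lowest called genes (horizontal axis), with 1 point for each of the 8 tumours, MTO54 in red and MTO207 in blue, control tumours dark and LY tumours light. For Bex1 the MTO54 tumours sit between 3.14 and 3.30 and the MTO207 tumours between 9.67 and 10.51, and for Mtap the tumours sit between 8.41 and 9.04 and between 5.52 and 5.96.

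The LAKTP lines carry both the T and the P allele, and their levels did not place the called genes with 1 of the lines. Of the 150 genes higher in MTO54, all 3 LAKTP lines had means nearer MTO54 for 22 and nearer MTO207 for 30, and the lines were split for 98. Of the 27 genes lower in MTO54 these counts were 8, 5 and 14. MTO68 was nearer MTO54 for 93 of the 150 genes, MTO140 for 101 and MTO93 for 26. The SD of the values on an array was 1.52 to 1.60 in MTO93 and 1.66 to 1.83 in MTO140. In MTO68 it was 1.47 in control replicate 2 and 1.76 to 1.82 in the other tumours. The part of array spread in these counts was not tested.

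Tgfbr2 itself did not separate the lines. Its values were 8.39 and 7.77 in the MTO54 control tumours, 6.90 and 7.12 under LY, and 8.01, 7.48, 7.69 and 7.65 in MTO207. The groups overlapped, and the difference was -0.16 (SE 0.25, adjusted p = 0.645), with 0.34 in control and -0.66 in LY tumours and -0.45 after loess. The 3 probe sets differed by -0.06 to -0.24. Host cells contribute intact Tgfbr2 transcript, and the position of the probes relative to the deleted part was not analysed here, so these values check neither genotype. The p53 gene itself was not analysed here. Of the 25 measured genes around Tgfbr2 on chromosome 9 only Gpd1l, a glycerol-3-phosphate dehydrogenase, was called. Its values were 5.13, 4.96, 5.61 and 5.32 in MTO54 against 5.81, 6.74, 7.25 and 7.14 in MTO207 (difference -1.48, SE 0.21, adjusted p = 0.0228), with a second probe set at -0.63. The other 24 differed by -0.47 (Osbpl10) to 0.88 (Eomes), both named after their values were seen.

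The TGF-beta ligand genes Tgfb1 and Tgfb3 were higher in MTO54, and Tgfb2 did not pass (difference 0.11, adjusted p = 0.5796). Tgfb1, the most widely expressed ligand, had values of 7.81 and 6.94 in MTO54 control tumours, 6.79 and 7.05 under LY, and 5.94, 5.70, 5.95 and 5.76 in MTO207 (difference 1.31, SE 0.21, adjusted p = 0.0373, and 0.0406 after loess). Tgfb3 had values of 7.03, 6.87, 5.92 and 6.54 against 5.44, 5.38, 5.58 and 5.26 (difference 1.18, SE 0.19, adjusted p = 0.0403, and 0.0563 after loess). For Tgfb1 and Tgfb3 every MTO54 tumour exceeded every MTO207 tumour, and the highest value of each gene was in a MTO54 control tumour. For Tgfb1 the other MTO54 control tumour (6.94) lay below LY replicate 2 (7.05). Tgfbr1, the type I receptor that LY inhibits, differed by 1.10 (SE 0.33, adjusted p = 0.0857). Of 22 ligand, receptor and SMAD genes tested 16 had positive differences, with a median of 0.18, and 2 were called. Of all genes tested 0.964% were called higher and 0.174% lower in MTO54, and the calls of each list below stand against these shares.

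Of 20 genes tested that respond to TGF-beta, 18 had positive differences, with a median of 0.71 against -0.04 over all genes. Of these 20, 1 was called, which was Cdkn2b, and 10 lay higher in MTO54 in both arms without overlap against 15.3% of all genes. The median was 1.01 in control tumours and 0.37 in LY tumours, and 0.50 after loess, when 17 of the 20 were positive. The mean level of the list was 6.95 to 7.74 in MTO54 and 6.52 to 6.73 in MTO207.

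All 24 collagen and matrix genes tested had positive differences (22 after loess), with a median of 0.61. Of them 2 were called, against 0.964% of all genes called higher. Fn1, which encodes fibronectin, had values of 11.42 and 11.05 in MTO54 control tumours, 10.16 and 10.68 under LY, and 9.81, 9.91, 9.34 and 9.15 in MTO207 (difference 1.27, SE 0.16, adjusted p = 0.0148, and 0.0406 after loess). Col6a3, a chain of the microfibrillar collagen VI, had values of 9.06, 8.58, 7.88 and 8.71 against 7.38, 7.63, 6.91 and 6.94 (difference 1.34, SE 0.21, adjusted p = 0.0304, and 0.0726 after loess). Col1a1, the main chain of fibrillar collagen I, was 12.38, 11.67, 11.45 and 12.03 against 11.51, 10.90, 10.90 and 10.87 (difference 0.84, adjusted p = 0.0594). The lines overlapped in Col1a1 over all tumours but not within either arm. The median over the list was 1.06 in control tumours and 0.33 in LY tumours, and 0.32 after loess.

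Fibroblast markers had smaller differences than the matrix genes. Of 15 fibroblast markers tested 10 had positive and 5 negative differences, with a median of 0.11 (0.49 in control and -0.18 in LY tumours, and -0.06 after loess), and 0 were called. Their mean level was 6.40 to 7.55 in MTO54 and 6.42 to 7.15 in MTO207, and the part of fibroblast content in the matrix values was not tested. Cd248, a membrane protein of activated fibroblasts, differed by 0.63 (adjusted p = 0.081), and Dpt, a matrix protein of quiescent fibroblasts, by -0.59 (adjusted p = 0.118). Smooth muscle markers had a median of 0.41 over 11 genes (0.12 in control and 0.61 in LY tumours, and 0.15 after loess), with 0 called. The 2 of smallest p were the tropomyosin Tpm2, with 1.29 (adjusted p = 0.0605), and the smooth muscle actin Acta2, with 0.88 (adjusted p = 0.111). Of 15 endothelial and pericyte markers tested 14 had positive differences with a median of 0.21, which was 0.54 in control tumours and -0.02 in LY tumours, where 7 were positive. Among these were the pericyte gene Rgs5 at 0.88 (adjusted p = 0.145) and the receptor gene Kdr at 0.52 (adjusted p = 0.154), and 0 markers of this list were called.

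Of 15 basement membrane genes tested 2 were called, both higher in MTO54, against 0.964% of all genes. These were Lama3 and Col4a1, a chain of the network-forming collagen IV. Col4a1 had values of 11.59, 10.84, 10.93 and 11.26 in MTO54 against 10.25, 10.38, 10.20 and 10.31 in MTO207 (difference 0.87, SE 0.17, adjusted p = 0.0485), and 0.45 (adjusted p = 0.136) after loess. The list as a whole had 9 positive and 6 negative differences and a median of 0.26, which was -0.03 after loess.

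**Figure D4:**
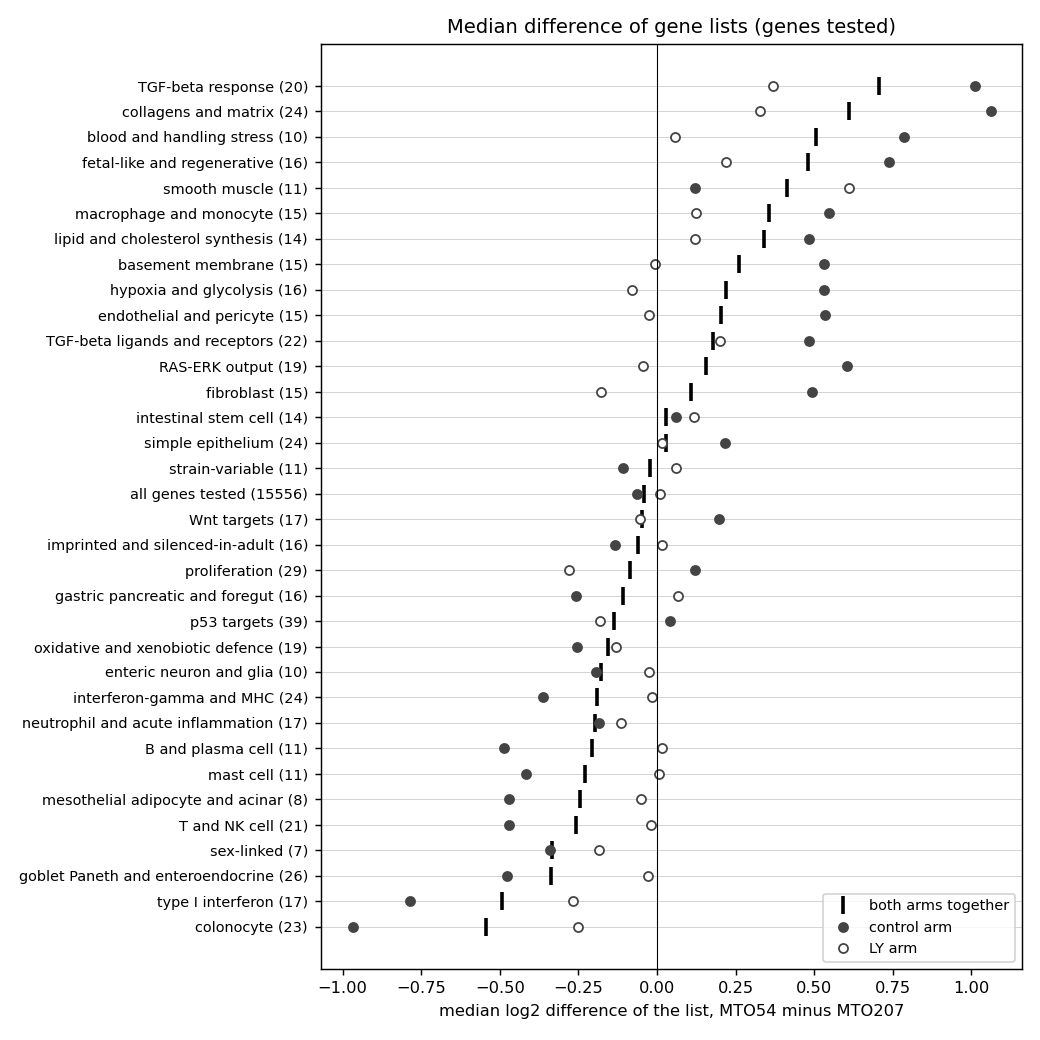
The median log2 difference MTO54 minus MTO207 of each gene list (horizontal axis) is plotted with 1 list per line of the vertical axis, filled points for control tumours, open points for LY tumours and a bar for both arms together. TGF-beta response genes lie at 1.01 in control and 0.37 in LY tumours and colonocyte genes at -0.97 and -0.25, against -0.06 and 0.01 for all genes.

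Genes activated by p53 held 2 calls. Of 39 tested, 23 were lower and 16 higher in MTO54, the line without p53, with a median of -0.14 against -0.04 over all genes. After loess 27 of the 39 were lower, with a median of -0.20 against -0.02 over all genes. The median was 0.04 in control and -0.18 in LY tumours. The 2 called members were both lower in MTO54, against 0.174% of all genes called lower. Ephx1, an epoxide hydrolase of xenobiotic metabolism, had values of 5.48, 5.13, 5.47 and 5.27 in MTO54 against 6.20, 6.05, 6.44 and 6.38 in MTO207 (difference -0.93, SE 0.12, adjusted p = 0.0218, and 0.0341 after loess). Gtse1, a protein of the G2 phase that binds p53, had values of 5.26, 5.37, 5.47 and 5.44 against 5.83, 5.85, 5.92 and 6.08 (difference -0.53, SE 0.10, adjusted p = 0.0448, and 0.0716 after loess). For both genes the lines did not overlap in either arm. Ephx1 means in the LAKTP lines, which also lack p53, were 5.75 in MTO68, 5.20 in MTO93 and 5.15 in MTO140. Gtse1 means were 5.69, 5.53 and 5.44 in the same lines, against 5.38 in MTO54 and 5.92 in MTO207.

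Several of the best-known p53 targets had lower values in MTO54 than in MTO207 under LY, without passing a test. Cdkn1a, which encodes the kinase inhibitor p21, had values of 9.63 and 9.56 in MTO54 control tumours and 9.47 and 9.57 in MTO207 control tumours, a difference of 0.07. Under LY it had 9.09 and 8.42 in MTO54 against 10.16 and 9.83 in MTO207, a difference of -1.24. Over both arms the difference was -0.58 (SE 0.27, adjusted p = 0.182), and the interaction of line and treatment had an adjusted p of 0.2243. Mdm2, the ubiquitin ligase that degrades p53, differed by 0.36 in control and -0.72 in LY tumours, and by -0.18 over both (adjusted p = 0.622), with an interaction adjusted p of 0.2306. Ccng1, a cyclin that recruits a phosphatase to Mdm2, differed by 0.04 in control and -0.93 in LY tumours, and by -0.44 over both (adjusted p = 0.241), with an interaction adjusted p of 0.2453. For all 3 genes both MTO54 LY tumours lay below both MTO207 LY tumours. After loess the differences over both arms were -0.97 for Cdkn1a (adjusted p = 0.0829), -0.48 for Mdm2 (adjusted p = 0.1725) and -0.80 for Ccng1 (adjusted p = 0.0847). The means in MTO54 and MTO207 were 9.18 and 9.76 for Cdkn1a, 7.70 and 7.87 for Mdm2 and 8.29 and 8.73 for Ccng1. In MTO68, MTO93 and MTO140 they were 8.88, 8.85 and 10.11 for Cdkn1a and 7.91, 7.31 and 7.96 for Mdm2. For Ccng1 these LAKTP means were 8.07, 7.64 and 8.18. The values of these genes in host cells, which keep p53, were not separated from those in tumour cells.

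Epithelial markers overlapped between the lines in their mean level. Of 24 tested 4 lay higher and 2 lower in MTO54 in both arms without overlap, against 15.3% and 11.4% of all genes. The mean level of 24 simple epithelium genes was 8.04 to 8.96 in MTO54 and 7.95 to 8.93 in MTO207, with a median difference of 0.03 (-0.29 after loess). Epcam, an epithelial adhesion protein, differed by 0.58 (adjusted p = 0.14), which was 0.16 after loess, and the keratin Krt8 by 0.03 (adjusted p = 0.882), which was -0.40 after loess. The 2 genes of smallest p in the list were Cdh1, which encodes E-cadherin, with 0.81 (adjusted p = 0.0741), and the epithelial transcription factor Ehf, with 0.82 (adjusted p = 0.0856). Of the 4 Ehf probe sets 1 differed by -0.11. With an epithelial score as a covariate 171 genes were called, of which 139 were among the 177.

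Markers of mature colonocytes had lower values in MTO54 without passing the test. Of 23 tested, 22 had negative differences (21 after loess) with a median of -0.55, 5 lay lower in both arms without overlap, against 11.4% of all genes, and 0 were called. The median was -0.97 in control and -0.25 in LY tumours, and -0.70 after loess. The members of smallest p were Aqp8, a water channel of the colon surface, with -0.93 (adjusted p = 0.0594), and Slc9a3, the apical sodium-proton exchanger, with -0.38 (adjusted p = 0.0621). Goblet, Paneth and enteroendocrine genes had 24 of 26 negative differences and a median of -0.34, which was -0.48 in control and -0.03 in LY tumours, where 12 were positive. The 1 called member, Cpe, was higher in MTO54. Onecut2 was the 1 called member among 16 gastric, pancreatic and foregut genes, whose median was -0.11 (0.0045 after loess).

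Among 14 stem cell genes tested 2 were called, both higher in MTO54, against 0.964% of all genes. Cd44, the hyaluronan receptor of crypt base and tumour cells, had values of 11.12, 10.65, 10.47 and 10.98 in MTO54 against 9.20, 8.93, 9.36 and 9.38 in MTO207 (difference 1.59, SE 0.18, adjusted p = 0.0101). Its 4 probe sets differed by 0.76 to 1.90. Sox9, a transcription factor of crypt progenitors, had values of 8.98, 8.71, 8.81 and 8.89 against 7.18, 7.39, 8.13 and 8.26 (difference 1.11, SE 0.20, adjusted p = 0.0453, and 0.0667 after loess). Within MTO207 both LY tumours were above both control tumours for Sox9. Lgr5, the stem cell receptor whose locus drives the Cre, ranged from 4.41 to 7.67 in MTO54 and from 4.64 to 6.08 in MTO207. The difference was 0.23 (adjusted p = 0.788), and a second probe set of Lgr5 differed by -0.21. The list had a median of 0.03, with 7 positive and 7 negative differences.

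Fetal-like and regenerative genes had 10 positive differences among 16 and a median of 0.48, which was 0.09 after loess. The called member was Tnfrsf12a, the receptor of the cytokine TWEAK, with 10.71, 9.45, 9.87 and 10.00 in MTO54 against 8.70, 8.39, 8.49 and 8.74 in MTO207 (difference 1.43, SE 0.25, adjusted p = 0.0442, and 0.0732 after loess). Of 17 Wnt targets 8 had positive and 9 negative differences, and Apcdd1 was the 1 called. Apc, which both genotypes target, differed by 0.17, and -0.06 after loess. Prox1, a transcription factor of intestinal tumours, differed by -0.51 (adjusted p = 0.299).

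Growth and metabolic lists held 1 call. Proliferation genes had a median of -0.09 over 29 members (0.12 in control and -0.28 in LY tumours, and -0.21 after loess), with the mitotic factor Foxm1 at -0.49 (adjusted p = 0.0816) and the replication clamp Pcna at 0.47 (adjusted p = 0.0916). Outputs of RAS-ERK signalling had a median of 0.16 (0.60 in control and -0.04 in LY tumours), with the inhibitor Spred2 at 0.86 (adjusted p = 0.0525) and the phosphatase Dusp4 at 1.04 (adjusted p = 0.0627). Hypoxia and glycolysis genes had a median of 0.22 (0.53 in control and -0.08 in LY tumours, and -0.13 after loess), with the prolyl hydroxylase P4ha2 at 1.56 (adjusted p = 0.0741) and the vessel growth factor Vegfa at 1.33 (adjusted p = 0.098). None of these passed. Dhcr7, the last enzyme of cholesterol synthesis, had values of 8.37, 8.50, 8.43 and 8.67 in MTO54 against 6.66, 7.48, 7.66 and 7.46 in MTO207 (difference 1.18, SE 0.20, adjusted p = 0.0442, and 0.0847 after loess). Lipid and cholesterol genes had 11 positive differences among 14 and a median of 0.34, which was 0.20 after loess.

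Immune cell markers gave no calls apart from Ltf. T and NK cell markers had 18 of 21 negative differences, with a median of -0.26 (-0.20 after loess). The median was -0.47 in control and -0.02 in LY tumours, where 9 of 21 were positive. The mean level of these markers was 5.20 to 5.57 in MTO54 and 5.50 to 5.89 in MTO207. Of the 5 equal classes of genes by mean level, the dimmest had a median of -0.13 and the next -0.14 (both -0.03 after loess). The part of this shift of dim genes in the immune lists was not tested. Cd8a, the co-receptor of cytotoxic T cells, differed by -0.18 (adjusted p = 0.439). The members of smallest p were the perforin gene Prf1, with 0.39 (adjusted p = 0.107), and the co-receptor chain Cd8b1, with -0.48 (adjusted p = 0.112). A second probe set of Prf1 differed by -0.25. Macrophage and monocyte markers had 10 of 15 positive differences and a median of 0.36 (0.19 after loess). The members of smallest p were both negative, the scavenger receptor Cd163 at -0.31 (adjusted p = 0.119) and the chemokine receptor Ccr2 at -0.33 (adjusted p = 0.127), of whose 4 probe sets 2 were negative. B and plasma cell markers had a median of -0.21 and mast cell markers -0.23, with -0.49 and -0.42 in control tumours and 0.02 and 0.0061 in LY tumours. After loess the medians were -0.15 and -0.15. Of their named members, the mast cell receptor chain Ms4a2 had the smallest adjusted p, 0.0611, at -0.35.

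All 17 type I interferon response genes tested had negative differences (16 after loess), and 0 were called. The median was -0.49, with -0.78 in control and -0.27 in LY tumours, and -0.79 after loess. Usp18, a protease that removes the ubiquitin-like ISG15, differed by -1.51 (adjusted p = 0.0594), and Oas2, a sensor of double-stranded RNA, by -0.80 (adjusted p = 0.0515). Of the 17 genes 5 lay lower in MTO54 in both arms without overlap, against 11.4% of all genes. Interferon-gamma and MHC genes had a median of -0.19 over 24 members (-0.36 in control and -0.02 in LY tumours, and -0.44 after loess), with the guanylate-binding protein Gbp4 at 0.59 (adjusted p = 0.0876) and the MHC class II activator Ciita at -0.41 (adjusted p = 0.184).

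The list of sex-linked genes held no call. The X-inactivation transcript Xist was 4.41 to 4.72 in MTO54 and 4.72 to 5.06 in MTO207 (difference -0.33, adjusted p = 0.0933). The Y-linked gene Eif2s3y, an initiation factor subunit, was 5.61, 5.65, 5.79 and 5.28 in MTO54 against 6.06, 6.22, 6.92 and 7.69 in MTO207 (difference -1.14, adjusted p = 0.0613). Imprinted genes and genes silenced in adult tissue had a median of -0.06 over 16 members (0.015 after loess), with Hmga2 called higher and Bex1 called lower. Strain-variable genes had a median of -0.02 (-0.06 after loess), with the glyoxalase Glo1 at 0.85 (adjusted p = 0.0699) and the protease Ide at 0.51 (adjusted p = 0.085). Oxidative defence genes had a median of -0.16 (-0.24 after loess), with the cystine transporter Slc7a11 at -0.44 (adjusted p = 0.0724).

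Markers of tissue next to the caecum and of handling gave no calls. Mesothelial, adipocyte and acinar markers had 8 of 8 negative differences, with a median of -0.24. The median was -0.47 in control and -0.05 in LY tumours, and -0.13 after loess. The mean level of these markers was 4.59 to 4.98 in MTO54 and 4.91 to 5.26 in MTO207. The dimmest of 5 equal classes of all genes had a median of -0.13 (-0.03 after loess). Enteric neuron and glia genes had 7 of 10 negative differences and a median of -0.18, and the member of smallest p was positive, the neuronal tubulin Tubb3 at 1.52 (adjusted p = 0.0767). Blood and handling stress genes had a median of 0.51, which was 0.78 in control and 0.06 in LY tumours and 0.25 after loess, with the immediate early genes Junb at 1.05 (adjusted p = 0.0628) and Fosb at 1.03 (adjusted p = 0.0743). In all, the 33 lists held 572 tested genes, of which 19 were called, against 1.14% of all genes.

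Median expression by chromosome also differed between the lines on some chromosomes. For each chromosome the median deviation of its bright genes was taken relative to the median of the tumour, which for 7778 genes gives a coarse profile. MTO54 lay above MTO207 without overlap on 6 chromosomes and below it on 5, and the lines overlapped on 9. On chromosome 9, which carries Tgfbr2, MTO54 tumours had -0.22 to -0.16 and MTO207 tumours 0.00 to 0.04. On chromosome 8 the values were 0.07 to 0.20 against -0.06 to 0.00, and on chromosome 5 they were 0.01 to 0.14 against -0.12 to -0.06. On chromosome 6 they were -0.03 to 0.08 against 0.13 to 0.18, and on chromosome 16 -0.24 to -0.02 against 0.01 to 0.08.

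The share of called genes varied between chromosomes, with no test of that variation. Chromosome 8 held 25 higher calls among 812 genes (3.08%), chromosome 15 held 16 of 649 (2.47%) and chromosome 5 held 23 of 967 (2.38%), against 0.964% of all genes. Chromosomes 4, 11 and 19, the other chromosomes on which MTO54 lay above MTO207, held 0.951%, 1.10% and 0.943%. Chromosome 12, on which the lines overlapped, held 11 of 517 (2.13%). Chromosome 16 held 0 higher calls. Chromosome 9 held 5 lower calls among 864 genes (0.579%) and chromosome 1 held 5 of 886 (0.564%), against 0.174% of all genes. On chromosomes 13 and 18 the shares of lower calls were 0.523% and 0.522%. The MTO54 tumours also varied among themselves. On chromosome 1 control replicate 1 and LY replicate 2 had -0.19 and -0.20, whereas control replicate 2 and LY replicate 1 had 0.02 and -0.03. Chromosome 12 split the same tumours, with -0.02 and -0.05 against 0.17 and 0.12. The MTO207 tumours did not show this split on chromosome 1, where they lay between -0.02 and 0.00. Copy number was not measured, and the part of chromosome gains or losses in single genes was not tested.

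**Figure D5:**
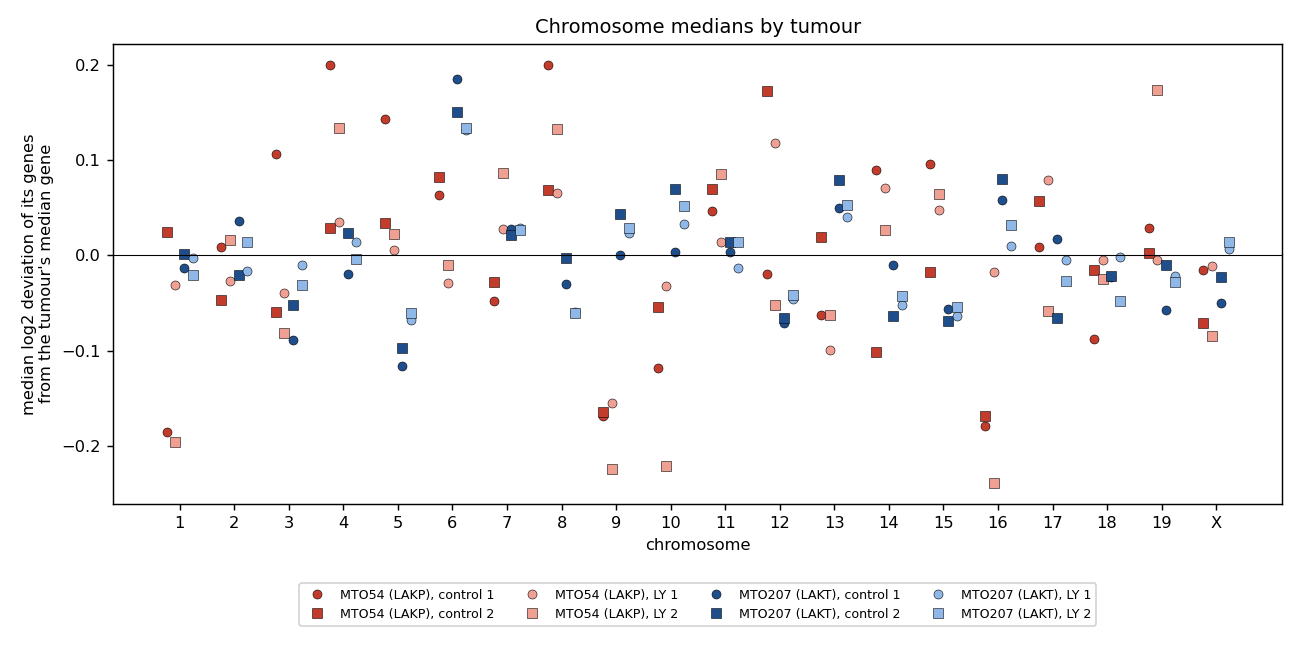
The median log2 deviation of bright genes on each chromosome relative to the median of the tumour (vertical axis) is plotted by chromosome (horizontal axis), with 1 point for each of the 8 tumours, MTO54 in red and MTO207 in blue, control tumours dark and LY tumours light, replicate 1 as circles and replicate 2 as squares. On chromosome 9 the MTO54 tumours lie between -0.22 and -0.16 and the MTO207 tumours between 0.00 and 0.04, and on chromosome 1 the MTO54 tumours fall into a pair near -0.20 and a pair near 0.

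The line difference was larger in control tumours in many lists, but no gene passed the test of that change. The interaction of line and treatment was called for 0 genes with limma, against 2929 at an unadjusted p under 0.05, and the smallest adjusted p was 0.1625. The 5 genes of smallest p shared that adjusted p. Mex3c, an RNA-binding ubiquitin ligase, differed between the lines by 1.83 in control and 0.06 in LY tumours, and Rabggtb, a subunit that prenylates Rab proteins, by 1.63 and -0.25. Ranbp9, a scaffold protein, differed by 1.34 and -0.30, the neuronal membrane protein Slitrk5 by -0.89 and 0.35, and Pgap1, an enzyme of membrane anchors, by 0.96 and -1.34.

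Fitted within an arm, 4440 genes were called in control tumours and 4 in LY tumours. These counts come from 2 tumours against 2 and are not a test of the difference between arms. After loess they were 1321 and 2. The mean SD of the values on an array was 1.66 in MTO54 and 1.46 in MTO207 in the control arm, and 1.61 and 1.56 in the LY arm. The part of this wider gap in the control arm was not tested. The 4 genes called in LY tumours alone were Bex1, Cdkn2a and Mtap, described above, and Pdzd2, a protein of PDZ domains that was named after its values were seen. Of the 177 genes 176 were called within the control arm and 3 within both arms, namely Bex1, Mtap and Cdkn2a.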

How the data were processed

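The authors deposited log2 values per probe set, 1 array per tumour, made from Affymetrix arrays. The submitters' processing notes name RMA and affy, of versions not given in the sources used. RMA corrects background, normalizes at the probe level and combines the probes of a set. The SD of the deposited values still ran from 1.46 to 1.83 over the arrays. Array number limits the precision, since such values carry no counts.

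The table held 45141 probe sets, of which 28898 had 1 gene symbol, 551 several, 15588 none named here and 104 were controls. Entrez IDs matched 28689 to current symbols. Of 17097 genes, each by its probe set of highest mean over 20 arrays, 15556 exceeded a log2 value of 4.16 (percentile 25 of the table) on 2 or more arrays and were tested.

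Groups came from the labels. Fits to the 8 arrays used lmFit and eBayes (trend on) of limma 3.58.1 under R 4.3.3, with line and treatment as terms, and with 4 group means for arm differences and the interaction. Tests were two-sided and Benjamini-Hochberg adjusted over 15556 genes at 0.05. Replicates were compared, and no arrays were identical. In 10 simulations with 200 changed genes the fit recovered 30% of those changed by 0.5, 91.4% by 1 and 100% by 2, and 6.02% of calls were false. The simulated noise was independent between genes and held no difference in spread between arrays. These arrays do differ in spread between the lines, so the simulated shares need not hold for the calls made here.

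Named genes were the 12 highest and 12 lowest called in both arms, without clone-type symbols, up to 4 called members of each of 33 lists or else 2 of smallest p, 5 of smallest interaction p and a fixed set. Of that set, Ddx3y had no named probe set, and 1 gene is not reported here. The lists held 666 genes, 587 of them measured. Lists and comparison were chosen with earlier results of these data known. Gene order and promoters came from RefSeq. Plots used matplotlib 3.10.9. Alternatives were other filters, probe set rules, normalizations, models and omissions of a tumour.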

Additional observations from a re-analysis of the deposited data

Results flagged for a closer look

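In 196 groups of 4 tumours of a line, examined over the named genes, 14 had 1 tumour far from the other 3, and chance flags about 1 in 20 groups. Control replicate 1 of MTO54 stood apart for Lama3 at 11.07 (the others 9.93 to 10.05), Kdr at 7.88 (6.81 to 6.91), Ccng1 at 8.87 (8.02 to 8.16), Cd163 at 3.47 (3.74 to 3.79), Cd79a, a B cell receptor chain, at 5.84 (6.21 to 6.25) and Lrrn4, a mesothelial gene, at 3.62 (4.15 to 4.20). Control replicate 2 of MTO54 stood apart for Onecut2 at 5.09 (7.19 to 7.36). In MTO207, control replicate 1 stood apart for Vegfa at 6.97 (7.99 to 8.08), Glo1 at 7.52 (8.20 to 8.31) and Col1a1 at 11.51 (10.87 to 10.90). Control replicate 2 of MTO207 stood apart for the interferon response genes Usp18 at 5.27 (6.77 to 7.04) and Oas2 at 6.31 (6.69 to 6.71) and for Fosb at 4.34 (4.54 to 4.57). LY replicate 2 of MTO207 stood apart for Prox1 at 6.12 (4.38 to 4.50).

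A separate test covered probe sets that name no gene or several. Of 12738 past the same filter, 129 (1.01%) differed between the lines, 101 higher and 28 lower in MTO54.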

How the results depend on the processing

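Against 177 calls, all of them in both arms, the stricter filter gave 436, averaged probe sets 71, quantile normalization 62, median centring 41, no trend 392, and omission of treatment 567 (566 in both arms). Array weights gave 872 (846 in both arms), control tumours alone 4440 and LY tumours alone 4. Cyclic loess gave 57 and array spread as a covariate 1, both chosen after seeing the data. Omitting 1 tumour gave 13 to 272, and 0 to 1 interaction calls. No filter (176), another probe set (182), all 20 arrays (197) and an epithelial covariate (171) moved the count little, but the genes were partly others. Of the 177 calls these settings kept 173, 147, 110 and 139. The 177 genes kept their direction wherever they were tested. Quantile normalization kept 55 of the 177 calls and loess 47, 10 held in all 8 omissions and both of these, and 26 were lost in each omission. Named genes that were called never changed direction.

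Of the 59 named genes that were not called 21 changed direction somewhere. The values were, with quantile normalization, Apc -0.057 and Krt8 -0.22. With loess they were Apc -0.061 and Krt8 -0.40, and with array weights S100a8 -0.072. In control tumours alone they were Tgfbr2 0.34, Cdkn1a 0.073, Mdm2 0.36, Ccng1 0.041 and Pgap1 0.96. In LY tumours alone they were Ciita 0.0039, Krt8 -0.10, Cd8a 0.11, S100a8 -0.057, Rabggtb -0.25, Ranbp9 -0.30 and Slitrk5 0.35. With array spread as a covariate they were Kdr -0.13, Ccr2 0.031, Ciita 0.25, Vegfa -0.23, Cyp1a1 0.065, Lrrn4 0.074, Sox10 0.076, Krt8 -0.064, Cd8a 0.21, S100a8 -0.30, Rabggtb -0.34, Mex3c -0.0595, Ranbp9 -0.42 and Slitrk5 0.36. Omissions of a tumour gave ranges of -0.45 to 0.86 for Lgr5, -0.37 to 0.046 for Mdm2, -0.074 to 0.11 for Krt8, -0.085 to 0.27 for S100a8 and -0.49 to 0.14 for Pgap1. The cause of these changes was not tested.

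Over 23 settings the list medians ran from 0.16 to 1.01 for TGF-beta response, 0.01 to 1.06 for matrix, -0.81 to -0.16 for type I interferon, -0.97 to -0.01 for colonocyte and -0.33 to 0.04 for p53 targets. Dim probe sets limit what can be said of genes near the filter. No paired analysis was possible because the labels carry running sample numbers and no replicate numbers that tie a tumour of 1 line to a tumour of the other.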
